A study of Mus musculus with 6 samples.

Results

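Glutathione S-transferases (GSTs) were followed in mouse liver at the RNA level through 10 genes chosen by symbol: Gsta1, Gsta2, Gsta3 and Gsta4 of the Alpha class, Gstm1, Gstm2, Gstm3 and Gstm4 of the Mu class, Gstp1 of the Pi class and Gstt1 of the Theta class. They are 10 of the 52459 genes in the count table, and all 10 passed the filter on low counts that kept 17032 genes. Livers of 6 C57BL6J male mice at 8 months of age were compared. Every mouse came from the F1 generation of Alb-Cre and Cas9 parents, in which the albumin promoter directs Cre, and so Cas9, to hepatocytes. An AAV8 vector given at 4 to 5 weeks of age carried a control guide RNA in 3 mice (sgCtrl; 5.1, 7.1 and 7.2) and a guide RNA against Prdx2, which encodes the peroxide-reducing enzyme peroxiredoxin 2, in the other 3 (sgPrdx2; 1.1, 1.3 and 3.2). Both groups received 100 mg/kg diethylnitrosamine (DEN), a liver carcinogen, 3 weeks after the vector and, from 1 week later, a choline-deficient high-fat diet (CDA-HFD) for 6 months, so neither group is a healthy liver. By this design, cells other than hepatocytes, and hepatocytes that the vector did not reach, should keep an intact Prdx2 gene, which was not measured here.

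GSTs join the thiol of the tripeptide glutathione to electrophilic compounds, which makes carcinogen metabolites and products of lipid peroxidation more soluble and easier to export. The cytosolic enzymes work as dimers of subunits of the same class, and the classes differ in the compounds they prefer. Liver is among the tissues richest in GSTs, and several of the genes are known to be induced by the stress-responsive factor Nrf2 and by the receptors CAR, PXR and AhR, which sense foreign compounds.

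The promoter windows (250 bases before to 50 after a RefSeq start, build GRCm38.p6) of 3 members are shown: Gstt1, the single member past the test, and Gsta3 and Gstm1, the most abundant Alpha and Mu members. Each is written 5' to 3' on the strand of its gene, and capitals mark a match to the core of the antioxidant response element bound by Nrf2 (TGACNNNGC) or of the element bound by AhR (GCGTG), searched on both strands.
Gstt1, chr10:75797682-75797981, minus strand: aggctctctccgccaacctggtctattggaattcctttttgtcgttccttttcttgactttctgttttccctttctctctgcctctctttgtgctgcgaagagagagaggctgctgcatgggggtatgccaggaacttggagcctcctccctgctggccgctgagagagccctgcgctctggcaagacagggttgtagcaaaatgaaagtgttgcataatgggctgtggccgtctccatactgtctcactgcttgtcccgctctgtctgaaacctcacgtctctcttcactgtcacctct
Gsta3, chr1:21240335-21240634, plus strand: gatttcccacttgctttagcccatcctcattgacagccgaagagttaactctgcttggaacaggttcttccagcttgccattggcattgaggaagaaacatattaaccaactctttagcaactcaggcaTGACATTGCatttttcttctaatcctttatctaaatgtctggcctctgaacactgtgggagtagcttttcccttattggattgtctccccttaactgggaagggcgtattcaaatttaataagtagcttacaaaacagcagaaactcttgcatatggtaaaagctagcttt
Gstm1, chr3:108017924-108018223, minus strand, the first of its listed starts: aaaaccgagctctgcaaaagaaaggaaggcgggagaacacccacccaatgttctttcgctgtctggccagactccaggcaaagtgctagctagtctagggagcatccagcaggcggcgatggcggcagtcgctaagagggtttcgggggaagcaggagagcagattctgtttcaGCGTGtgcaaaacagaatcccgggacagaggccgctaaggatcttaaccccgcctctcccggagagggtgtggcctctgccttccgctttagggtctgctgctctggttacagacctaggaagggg
The Gsta3 window held the antioxidant core with its first base at position -121 from the start, and the Gstm1 window held the AhR core at position -76. Neither core was found in the Gstt1 window. RefSeq windows were found for 9 of the 10 members (Gsta4 was not matched), of which 1 held the antioxidant core and 4 (Gsta1, Gsta2, Gstm1 and Gstp1) the AhR core. These letters occur in 12.4% and 32.4%, respectively, of all 32851 promoter windows of the same length, so a match is no more than a description.

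Total counts were 37462102 to 56865293 per liver, and 3 counts, taken as the floor of detection, stood for 0.0555 to 0.0921 normalized CPM (counts scaled to library size), far under every member. Members took 0.420% to 0.753% of all counts. Prdx2 RNA was 119 ± 11.6 CPM in sgCtrl and 120.0 ± 26.1 CPM in sgPrdx2 livers (mean ± SD, n = 3 each, as throughout), with an edgeR adjusted p of 0.983, and RNA counts do not show whether the gene was edited. The paper reported suppressed PRDX2 protein in hepatocytes of this model by immunohistochemistry, which RNA counts do not measure. Hepatocyte markers moved between the groups. Of 15 measured markers, 15 were higher in sgPrdx2 livers and 8 passed the test, with a median log2 fold change of 0.96. Their summed level was 88407 to 98611 CPM in sgCtrl and 153748 to 202867 CPM in sgPrdx2 livers. Alb alone was at 60214 ± 2051 CPM in sgCtrl and 117782 ± 17469 CPM in sgPrdx2 livers, so the sum is mostly Alb. Values below that are scaled or relative to hepatocyte markers use this sum. On that scale 9 of the 15 markers were higher and 6 lower, with 1 called higher and 3 called lower. Markers of other cells were mostly lower. This held for 12 of 12 macrophage markers (summed level 4109 to 4804 CPM in sgCtrl and 2759 to 3556 CPM in sgPrdx2 livers, 2 called), 10 of 12 for stellate cells and myofibroblasts (2378 to 2728 and 1757 to 1811 CPM; edgeR called 0, with 7 at an unadjusted p under 0.05, and DESeq2 4), 9 of 10 for cholangiocytes (1721 to 1946 and 1302 to 1479 CPM; edgeR called 0, with 4 at an unadjusted p under 0.05, and DESeq2 2), 8 of 10 for endothelium (440 to 460 and 367 to 427 CPM, 1 called) and 10 of 12 for leukocytes (148 to 164 and 82.8 to 110 CPM, 2 called). Over all genes, 4241 of 17032 had an unadjusted p under 0.05, and edgeR called 1.79% higher and 1.54% lower. No marker was at 0 in every liver, and the part of these shifts in the GST results was not tested. In whole liver, more cells of a type and more RNA per cell cannot be told apart.

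On the scale of TMM normalization, Gstt1 rose in sgPrdx2 livers, the fitted changes of the 4 Alpha members were positive without passing the test, and those of 3 of the 4 Mu members were negative, also without passing it. By edgeR's quasi-likelihood test, Gstt1 was 2.06-fold higher and was the 1 member of 10 past an adjusted p of 0.05 over all genes, where 1.79% of all genes were called higher. No member was called lower, against 1.54% of all genes. An unadjusted p under 0.05 was found for 4 members (Gsta2, Gsta3, Gsta4 and Gstt1), beside 4241 of the 17032 genes tested. The fitted changes were positive for 7 members and negative for 3, with a median log2 fold change of 0.30 beside -0.02 over all genes tested. The groups did not overlap for 2 members, Gsta3 and Gstt1, both higher in sgPrdx2 livers, where 16.7% of all genes were higher without overlap. No member was lower without overlap, as 17.5% of all genes were. Relative to hepatocyte markers, by contrast, 9 of the 10 changes were negative (the exception was Gstt1 at 0.07), which is described with each class. The median of all genes was -0.96 on that scale.

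**Figure D1:**
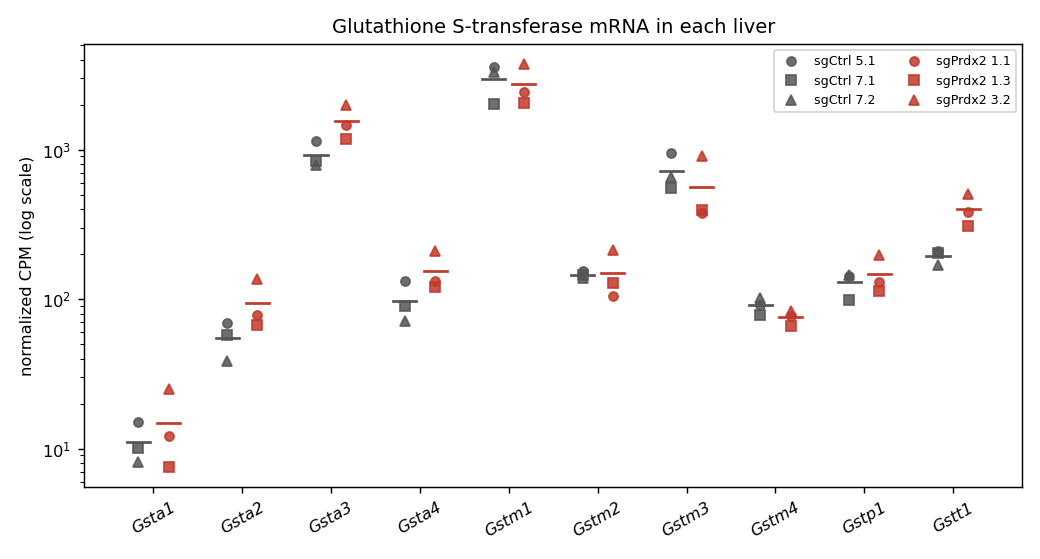
Normalized CPM on a log axis of the 10 members in each of the 3 sgCtrl (grey) and 3 sgPrdx2 (red) livers, with a horizontal line at each group mean. The groups stand apart for Gsta3 and Gstt1 alone, and sgPrdx2 liver 3.2 is the highest of the sgPrdx2 livers for all 10 members.

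Gstt1, the Theta enzyme known for its activity on small halogenated compounds, was at 208, 203 and 168 CPM in sgCtrl livers 5.1, 7.1 and 7.2 and at 383, 306 and 506 CPM in sgPrdx2 livers 1.1, 1.3 and 3.2. Every sgPrdx2 liver was above every sgCtrl liver. The log2 fold change was 1.05 (SE 0.21, adjusted p = 0.0457), with a 95% interval of the fold from 1.48 to 2.88, and the two-sided exact permutation p was 0.1, the smallest that 3 against 3 livers allow. Raw counts on Gstt1 were 9114, 9127 and 8819 in the sgCtrl and 16813, 16557 and 16477 in the sgPrdx2 livers. The raw sgPrdx2 counts thus lay close together, while their CPM, which are scaled to library size, spread more widely. What lies behind that spread was not tested. The call was narrow. By edgeR it was lost on leaving out any of 5 of the 6 livers (sgCtrl 5.1, 7.1 or 7.2, sgPrdx2 1.1 or 1.3; adjusted p = 0.0728 to 0.162) and kept without sgPrdx2 3.2 (adjusted p = 0.0464), while the log2 fold change stayed between 0.85 and 1.22. Without sgCtrl 5.1 or 7.2, or sgPrdx2 1.1 or 1.3, edgeR called 0 genes in all, so the loss there is not particular to Gstt1. The unadjusted edgeR p of Gstt1 stayed between 0.000435 and 0.00549 on leaving out a liver. DESeq2 on all 6 livers gave Gstt1 an adjusted p of 7.77e-05 (log2 fold change 1.05). Scaled to hepatocyte markers, the log2 fold change of Gstt1 was 0.07 (adjusted p = 0.730), and scaled to 6 housekeeping genes it was 0.64 (adjusted p = 0.0683). The housekeeping genes are not a fixed reference here. On the TMM scale 5 of the 6 were higher in sgPrdx2 livers, with a median log2 fold change of 0.43. The groups did not overlap for 4 of them, where 16.7% of all genes were higher without overlap. By edgeR 0 of the 6 were called, and by DESeq2 3 were called higher.

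Gstt1 lies on chromosome 10 from 75783813 to 75798584 on the minus strand (GRCm38), beside other Theta genes. Gstt2 lies at 75831114 to 75837424 and Gstt3 at 75774115 to 75781414, both on the same strand. Gstt2 rose as well, from 92.8 ± 14.1 to 186 ± 42.6 CPM, with a log2 fold change of 1.001 (SE 0.20, adjusted p = 0.0457). Like that of Gstt1, its call was lost with housekeeping scaling (log2 fold change 0.60, adjusted p = 0.0701) and with hepatocyte scaling (0.027, adjusted p = 0.906). Gstt3 went from 18.0 ± 5.55 to 30.7 ± 1.22 CPM and missed the test (log2 fold change 0.77, adjusted p = 0.0771). Gstt4 was near the floor, with 0 to 0.0685 CPM, and was not tested. No 50-base stretch of the annotated Gstt1 transcripts occurs in another gene.

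Among Alpha members, Gsta3 was the most abundant. Mouse Gsta3 is known for detoxifying the epoxide of aflatoxin. It was at 1138, 840 and 792 CPM in sgCtrl and at 1462, 1178 and 1988 CPM in sgPrdx2 livers. The groups did not overlap, although the highest sgCtrl liver, 5.1, lay close under the lowest sgPrdx2 liver, 1.3. The log2 fold change was 0.74 (SE 0.24, edgeR adjusted p = 0.115), so Gsta3 did not pass the test over all genes. The fold was 1.67, with a 95% interval from 1.14 to 2.44. DESeq2, which tests the same counts with another model, gave an adjusted p of 0.0188 for a log2 fold change of 0.75.

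Gsta4, which acts on hydroxynonenal and related aldehydes from lipid peroxidation, was at 132, 89.7 and 71.1 CPM in sgCtrl and at 132, 121 and 209 CPM in sgPrdx2 livers. The groups overlapped, since sgCtrl liver 5.1 reached the level of the lower sgPrdx2 livers (log2 fold change 0.66, SE 0.28, adjusted p = 0.197). Gsta2, an inducible Alpha subunit, was at 69.4, 57.2 and 38.8 CPM in sgCtrl and at 78.7, 67.0 and 136 CPM in sgPrdx2 livers. Here too sgCtrl 5.1 lay inside the sgPrdx2 range (log2 fold change 0.77, SE 0.31, adjusted p = 0.173).

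Gsta1 was the lowest member, with 15.01, 10.1 and 8.14 CPM in sgCtrl and 12.1, 7.49 and 24.8 CPM in sgPrdx2 livers. Its groups overlapped on both sides (log2 fold change 0.41, SE 0.42, adjusted p = 0.568), and without sgPrdx2 3.2 its log2 fold change was -0.16. Gsta1 counts are uncertain, because 90.5% of its 50-base stretches are shared, with Gsta2, Gm3776 and Gm10639, and 49.8% of those of Gsta2 are shared as well. Gm3776 itself was at 4.02 ± 0.439 and 4.85 ± 2.67 CPM (adjusted p = 0.672). Summed, the 4 Alpha members were at 1354, 997 and 910 CPM in sgCtrl and 1685, 1373 and 2358 CPM in sgPrdx2 livers, a ratio of means of 1.66 without overlap. This sum is mostly Gsta3. Relative to the summed hepatocyte markers, which are mostly Alb, the Alpha direction turned. Log2 fold changes were then -0.61 for Gsta1, -0.22 for Gsta2, -0.24 for Gsta3 and -0.33 for Gsta4, none of them called, beside a median of -0.96 over all genes.

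**Figure D2:**
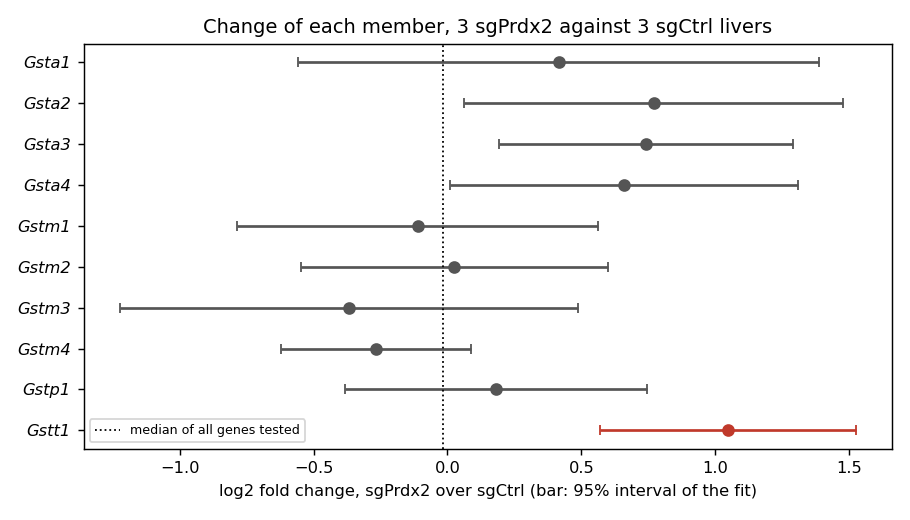
Log2 fold change of each member, sgPrdx2 over sgCtrl (n = 3 livers each), with the 95% interval of the edgeR fit, and a dotted line at the median of all genes tested. Gstt1 (red) alone passed an adjusted p of 0.05. The intervals of Gsta2, Gsta3 and Gsta4 lie above 0 on this scale, where the 4 Mu intervals span 0, and relative to hepatocyte markers those Alpha values are negative.

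The Mu class held the largest part of the counts on the 10 members, and no Mu member passed the test. Its genes lie in a cluster on chromosome 3, on the minus strand, from Gstm3 (start 107963696) through Gstm2 and Gstm1 to Gstm4 (end 108044894). Gstm1, the major hepatic Mu subunit, was at 3538, 2020 and 3282 CPM in sgCtrl and at 2412, 2042 and 3726 CPM in sgPrdx2 livers. The lowest and the highest liver of each group lay close to those of the other group (log2 fold change -0.11, SE 0.29, adjusted p = 0.832), and the 95% interval of the fold, 0.58 to 1.47, leaves room for a change of either sign.

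Gstm3 was at 951, 554 and 656 CPM in sgCtrl and at 377, 391 and 908 CPM in sgPrdx2 livers. In sgPrdx2 livers 1.1 and 1.3 it was below all sgCtrl livers, and in sgPrdx2 3.2 it was near the top of the sgCtrl range (log2 fold change -0.37, SE 0.37, adjusted p = 0.565). Without liver 3.2, its log2 fold change was -0.90. Gstm2 was at 154, 146 and 138 CPM in sgCtrl and at 105, 129 and 212 CPM in sgPrdx2 livers. The sgCtrl values were close together and the sgPrdx2 values lay on both sides of them (log2 fold change 0.03, SE 0.25, adjusted p = 0.957). Gstm4 was at 91.9, 78.3 and 102 CPM in sgCtrl and at 77.2, 66.0 and 83.3 CPM in sgPrdx2 livers, with overlapping groups and the tightest error of the members (log2 fold change -0.27, SE 0.15, adjusted p = 0.320).

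Scaled to hepatocyte markers, all 4 Mu members were called lower, with log2 fold changes of -1.10 for Gstm1, -0.94 for Gstm2, -1.38 for Gstm3 and -1.23 for Gstm4, as was Gstp1 (-0.80). That scaling moved the median of all genes to -0.96 and called 13203 genes lower and 40 higher. Relative to that median, the same values were -0.15, 0.01, -0.42 and -0.27 for the Mu members, 0.15 for Gstp1, 0.71 for Gsta3 and 1.03 for Gstt1. Parts of the Mu transcripts are shared, as 18.9% of the 50-base stretches of Gstm1, 28.8% of Gstm3 and 5.65% of Gstm2 occur in other genes, whereas Gstm4 shares none. These are other Mu genes, a pseudogene and predicted genes, and for Gstm2 mostly the predicted genes Gm12499 and Gm6665.

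Gstp1, the Pi enzyme used as a marker of carcinogen-induced liver lesions in rats, was at 143, 99.0 and 145 CPM in sgCtrl and at 130, 113 and 197 CPM in sgPrdx2 livers. The groups overlapped (log2 fold change 0.18, SE 0.24, adjusted p = 0.670), and the log2 fold change was -0.08 without sgPrdx2 3.2. Gstp1 shares 33.7% of its stretches with Gstp2 and a pseudogene. Gstp2 was at 5.87 ± 3.39 and 6.15 ± 4.63 CPM (adjusted p = 0.963).

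**Figure D3:**
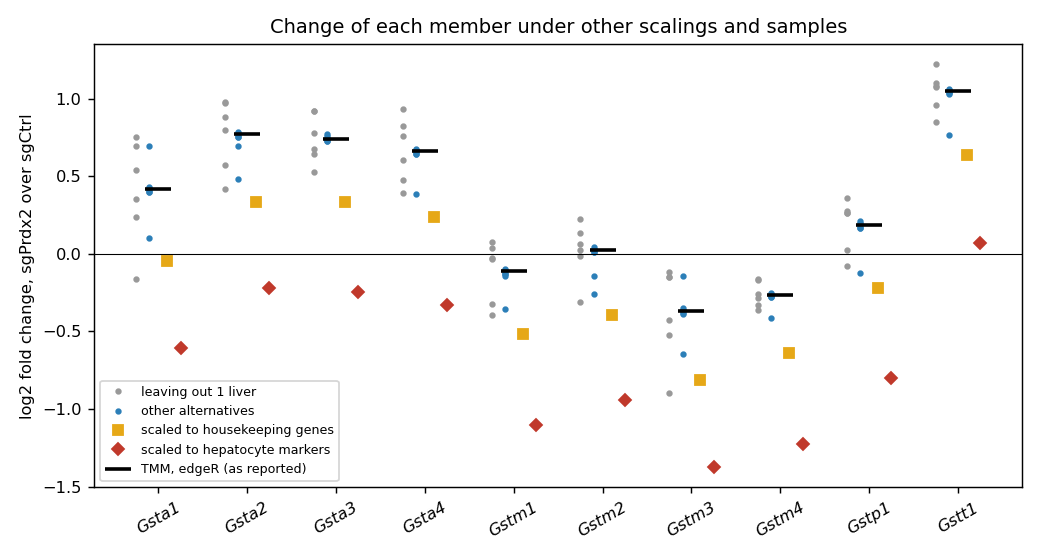
Log2 fold change of each member, sgPrdx2 over sgCtrl, as reported (black bar), under other normalizations, filters and models (blue), leaving out each liver (grey), and scaled to 6 housekeeping genes (yellow) or hepatocyte markers (red). Gstt1 stays above 0 throughout (lowest 0.07), Gsta2, Gsta3 and Gsta4 turn below 0 with hepatocyte scaling alone, and Gstm3 and Gstm4 stay below 0 throughout.

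Levels of different genes were compared per kilobase of the longest annotated transcript. In sgCtrl livers the order ran from Gstm1 (2286 ± 631 CPM per kb) through Gstm3 (550 ± 157), Gsta3 (331 ± 67.1), Gstt1 (175 ± 19.9), Gstp1 (157 ± 31.8), Gstm2 (137 ± 7.64), Gsta4 (99.8 ± 31.7), Gsta2 (63.4 ± 17.7) and Gstm4 (53.2 ± 7.08) to Gsta1 (12.7 ± 4.04). The livers of neighbouring members overlapped from Gstt1 down to Gstm4, while Gstm1, Gstm3, Gsta3 and, at the bottom, Gsta1 each stood clear of their neighbours. Within each sgCtrl liver, by this length, Gstm2 was above Gsta4 and Gsta4 above Gsta2. Gstt1 and Gstp1, Gstp1 and Gstm2, and Gsta2 and Gstm4 changed places between livers, so their order is not resolved. In sgPrdx2 livers Gsta3 was at 553 ± 147 CPM per kb, and Gstm3 was at 426 ± 231 CPM per kb. The livers of Gsta3 and Gstm3 overlapped there, although within each sgPrdx2 liver Gsta3 was above Gstm3. Per kilobase of all annotated exons the mean of Gsta3 (355 CPM per kb) was below that of Gstm3 (426 CPM per kb). Their order in sgPrdx2 livers thus depends on the length used and is not resolved.

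How the family is made up does not depend on how livers are scaled, because each member is set against the others in the same liver. The make-up differed between the groups. Of the counts on the 10 members, the Mu class held 73.5%, 68.3% and 77.4% in sgCtrl and 57.5%, 59.5% and 61.7% in sgPrdx2 livers. The Alpha class held 21.0%, 24.3% and 16.8% in sgCtrl and 32.6%, 31.1% and 29.5% in sgPrdx2 livers. Both shares were apart without overlap (two-sided exact permutation p = 0.1 is the smallest the design allows). Shares in a liver add up to the whole, so a higher Alpha share and a lower Mu share are not separate results.

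By gene, Gsta3 went from 17.6 ± 2.93% to 26.6 ± 1.70% of the family and Gstt1 from 3.76 ± 1.03% to 6.89 ± 0.539%. Gstm1 went from 55.0 ± 5.74% to 46.5 ± 0.257%, and Gstm3 from 13.5 ± 1.31% to 9.17 ± 2.06%. Shares of Gsta2 and Gsta4 were also higher without overlap, and those of Gsta1, Gstm2, Gstm4 and Gstp1 overlapped. How often such shares are apart over all genes was not computed. For log2 ratios of 2 genes, 32.7% of all pairs tested were apart. Total RNA of the 10 members was 6441, 4097 and 5400 CPM in sgCtrl and 5170, 4421 and 7990 CPM in sgPrdx2 livers. The totals thus overlapped while the Alpha and Mu shares did not.

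**Figure D4:**
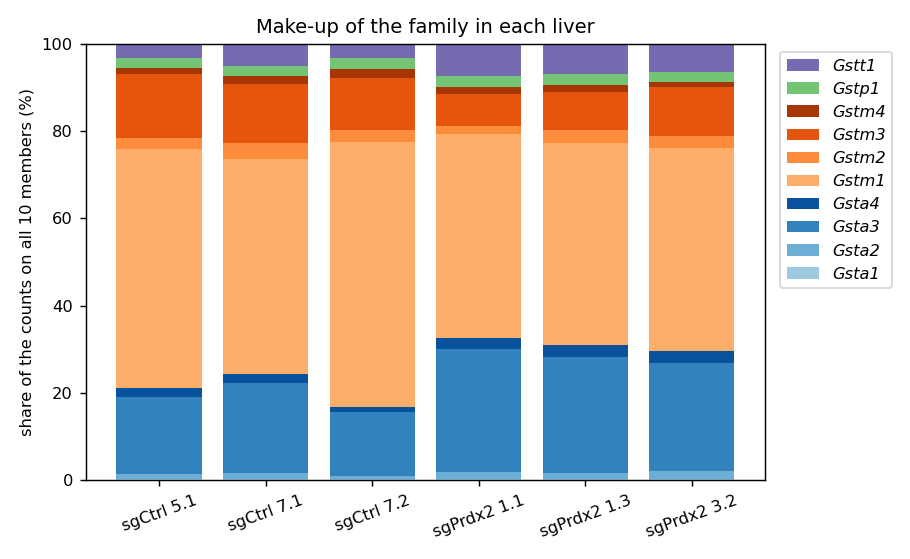
Share, in percent, of the counts on all 10 members that each member took in each liver, stacked from the Alpha class (blue) through Mu (orange) and Pi (green) to Theta (purple). The blue part is 29.5% to 32.6% in sgPrdx2 and 16.8% to 24.3% in sgCtrl livers.

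The log2 ratio of each pair of members was then compared between the groups, which shows where in the family the shift lay. Groups did not overlap for 25 of the 45 pairs, where 32.7% of all pairs of tested genes were apart. Pairs share members and livers, so they are not independent. Within the Alpha class 0 of 6 pairs and within the Mu class 0 of 6 pairs were apart. Between Alpha and Mu members 13 of 16 pairs were apart, each with the Alpha member relatively higher in sgPrdx2 livers, and between Mu and Theta 4 of 4. Mu here means Gstm1 to Gstm4, and other Mu genes are given below. The 3 that overlapped paired Gsta1 with Gstm1, Gstm2 and Gstm4.

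The ratio of Gsta3 to Gstm3 had a log2 value of 0.26, 0.60 and 0.27 in sgCtrl and 1.96, 1.59 and 1.13 in sgPrdx2 livers. Its mean difference of 1.18 thus exceeded the spread in either group (SD 0.19 and 0.41). The ratio of Gstm3 to Gstt1 was at 2.19, 1.45 and 1.97 in sgCtrl and at -0.02, 0.35 and 0.84 in sgPrdx2 livers on the log2 scale, a difference of -1.48 and the largest of the 45 pairs. The ratio of Gsta3 to Gstt1 moved less, by -0.30, from 2.45, 2.05 and 2.24 to 1.93, 1.94 and 1.97, and was still apart. Against Gstp1, the members Gsta2, Gsta3, Gsta4 and Gstt1 were relatively higher and Gstm1 and Gstm4 relatively lower without overlap.

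**Figure D5:**
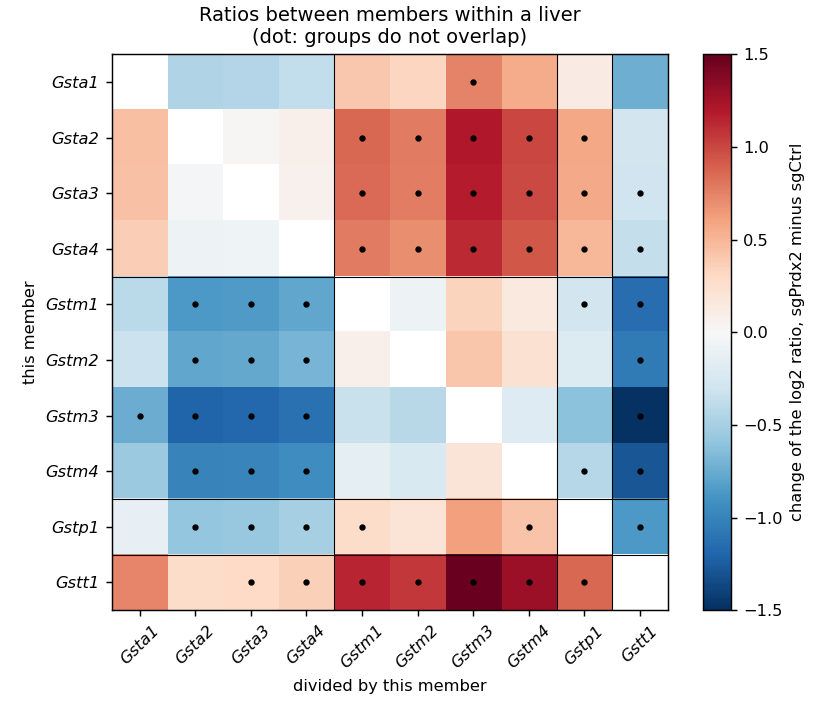
Change of the log2 ratio of the row member to the column member, sgPrdx2 minus sgCtrl (means of 3 livers each; red higher, blue lower), with a dot where the groups do not overlap and lines between classes. The dots fill the blocks between Alpha and Mu (13 of 16) and between Mu and Theta (4 of 4) and are missing inside the Alpha and the Mu block.

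For Gstt1 and Gsta3, the members with the smallest p, the 3 genes outside the family with the most similar levels over the 6 livers were listed. For Gstt1 these were Alad, of heme synthesis (Pearson r of log2 CPM 0.998), Lipe, hormone-sensitive lipase (0.997), and Fdft1, squalene synthase (0.997). For Gsta3 they were Eci1 and Decr1, which prepare unsaturated fatty acids for mitochondrial oxidation (0.998 and 0.997), and Hsd17b11, a lipid droplet enzyme (0.994). These correlations rest on 6 points that fall into the same groups and share the libraries and their scaling.

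Other GST genes were measured as a list of 22, of which 17 were tested. Of these, 13 were higher and 4 lower, with a median log2 fold change of 0.26, although 10 of the 17 were lower with housekeeping scaling and 15 with hepatocyte scaling. Those scalings moved the median of all genes to -0.38 and -0.96. By the test 3 rose and 1 fell, where 1.79% of all genes were called higher and 1.54% lower. Besides Gstt2, Gstz1, which isomerises maleylacetoacetate in tyrosine breakdown, rose from 441 ± 58.7 to 756.3 ± 56.5 CPM (log2 fold change 0.78, adjusted p = 0.0466), and turned to -0.17 (adjusted p = 0.364) relative to hepatocyte markers and was not called with housekeeping scaling (0.40, adjusted p = 0.130). Gstk1, the mitochondrial and peroxisomal Kappa enzyme, rose from 58.1 ± 14.02 to 112 ± 8.60 CPM (0.94, adjusted p = 0.0480), a call that was lost with housekeeping scaling (0.57, adjusted p = 0.101) and with hepatocyte scaling (0.0017, adjusted p = 0.994). Hpgds, the prostaglandin D synthase of hematopoietic cells, fell from 25.2 ± 2.76 to 15.1 ± 2.14 CPM (-0.74, adjusted p = 0.0466). Gstm6, a Mu gene that shares stretches with Gstm3, was at 88.9 ± 13.4 and 120 ± 19.6 CPM, higher without overlap, as 16.7% of all genes were, and was not called (0.43, adjusted p = 0.180). The Mu genes Gstm5 (0.22, adjusted p = 0.490) and Gstm7 (0.62, adjusted p = 0.199) also had positive changes, with overlapping groups. With hepatocyte scaling Gstm5 and Gstm6 were called lower, as were 13203 of the 17032 genes tested. The lower Mu share of the family thus describes Gstm1 to Gstm4 and not every Mu gene.

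Steps before and after conjugation were mixed. Of 14 genes of glutathione synthesis and recycling, 10 were higher and 4 lower (median log2 fold change 0.20; 3 and 11 with housekeeping scaling, 0 and 14 with hepatocyte scaling). On those 2 scalings the medians of all genes were -0.38 and -0.96. The 1 called was Slc7a11, the cystine carrier that supplies cysteine, which fell from 6.61 to 2.66 CPM (-1.31, adjusted p = 0.0491). Of 19 tested genes of conjugate export and mercapturate steps, 10 were higher and 9 lower (median 0.12; 3 and 16 with hepatocyte scaling), with 3 called in each direction. Over all genes 1.79% were called higher and 1.54% lower. Acy1 and Acy3, which remove acetyl groups from amino acids and mercapturates, rose (1.07 and 1.03, adjusted p = 0.0355 and 0.0394), as did the hepatocyte transporter Abcc6 (0.98, adjusted p = 0.0455). With hepatocyte scaling none of the 3 was called (Acy1 0.11, Acy3 0.071 and Abcc6 0.049, adjusted p = 0.559, 0.714 and 0.835), and with housekeeping scaling Acy1 alone was (adjusted p = 0.0448, against 0.0641 for Acy3 and 0.134 for Abcc6). The export pumps Abcc1 (-0.97, adjusted p = 0.0328), Abcc4 (-1.91, adjusted p = 0.0486) and Abcc5 (-0.77, adjusted p = 0.0466) fell. They were called lower with both of these scalings too, which move most genes down and so could hardly have reversed a fall.

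Among 22 Nrf2 target genes, with Nrf2 and its inhibitor Keap1 counted in, 6 were higher and 16 lower, with a median log2 fold change of -0.46, and 5 were called, all lower, where 1.54% of all genes were called lower. With housekeeping or hepatocyte scaling 22 of 22 were lower, where the median of all genes also moved, to -0.38 and -0.96. Besides Slc7a11 the 5 called on the TMM scale were Me1, a source of NADPH (-1.06, adjusted p = 0.0373), Hmox1, which breaks down heme (-1.01, adjusted p = 0.0386), Srxn1, which repairs overoxidised peroxiredoxins (-0.91, adjusted p = 0.0466), and Pgd of the pentose phosphate pathway (-0.69, adjusted p = 0.0466). Of 16 regulators and targets of CAR, PXR and AhR, 10 were higher and 6 lower (median 0.38; 0 and 16 with hepatocyte scaling). Here edgeR called 0, with 4 of the 16 at an unadjusted p under 0.05, beside 4241 of 17032 over all genes. DESeq2 called 3 higher and 1 lower, beside 1168 and 898 over all genes. The 3 with the smallest p were Cyp1b1 (-1.09, adjusted p = 0.0530), Cyp3a13 (0.48, adjusted p = 0.0693) and Cyp3a11 (0.83, adjusted p = 0.0832), all enzymes of the cytochrome P450 family.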

How the data were processed

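RNA-Seq of 6 livers (3 sgCtrl, 3 sgPrdx2) was grouped by the sample labels. The authors deposited raw counts of reads per gene, without normalization, and their own comparison of the groups (means, fold changes and p-values), which was not used. The submitters' processing notes name HISAT2, HTSeq, DESeq2 and the build GRCm38. Versions, annotation and the strand setting of the counting are not given in the sources used here, so reads from overlapping genes may be misassigned. Genes were kept by filterByExpr (minimum count 10), normalized by TMM and compared by edgeR's quasi-likelihood test without covariates (edgeR 4.0.16, R 4.3.3). A call needed an adjusted p (Benjamini-Hochberg, over 17032 genes) below 0.05. CPM are counts divided by the normalized library size. The script was tested on simulated data. Single values used two-sided exact permutation tests. Livers are separate animals by their labels, and no pair agreed within sampling noise. Intervals of folds come from the fit, and floors cover counting error only.

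Named are all 10 members, Prdx2, the called genes of each pathway list (or the 3 with the smallest p), GST genes sharing 50-base stretches with a member, and the 3 genes most correlated with each of the 2 members with the smallest p. Gstt3 and Gstt4 were named after their values were seen, as neighbours of Gstt1, and so were Gstm5 and Gstm7, as further Mu genes. Members and lists were chosen with earlier results of these data known. Transcript lengths and shared stretches came from GENCODE transcripts on GRCm38. The settings tried were upper-quartile and RLE normalization, DESeq2 1.42.0, other filters, removal of length and GC trends, and leaving out each liver. Counts were also scaled to the geometric mean of 6 housekeeping genes or to the summed hepatocyte markers. In a further setting, counts of GST genes that share stretches were summed.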

Additional observations from a re-analysis of the deposited data

How the results depend on the processing

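With RLE or upper-quartile normalization, a filter of 10 counts in every liver, no filter, removal of length and GC trends, or summing of GST genes that share stretches, Gstt1 was again the 1 member called. DESeq2 called 2 (Gsta3 and Gstt1), scaling to hepatocyte markers 5 (the 4 Mu members and Gstp1, all lower), and scaling to housekeeping genes 1, which was Gstm4 in place of Gstt1 (log2 fold change -0.64, adjusted p = 0.0462). Leaving out a liver gave 0 to 1. Over all genes, 567 were called (305 higher and 262 lower), against 989 with housekeeping scaling (70 higher and 919 lower, median of all genes -0.38), 13243 with hepatocyte scaling (40 and 13203), 2066 with DESeq2, 1128 with no filter, 1044 with length and GC trends removed, and 0 to 619 on leaving out a liver. The counts at 0 came without sgCtrl 5.1 or 7.2 and without sgPrdx2 1.1 or 1.3, by edgeR, where the unadjusted p was under 0.05 for 3114 to 3993 genes. DESeq2 was not run without a liver. The cause was not tested. Directions turned as follows, as log2 fold changes. With housekeeping scaling they were -0.043 for Gsta1, -0.40 for Gstm2 and -0.22 for Gstp1. With hepatocyte scaling they were -0.61 for Gsta1, -0.22 for Gsta2, -0.24 for Gsta3, -0.33 for Gsta4, -0.94 for Gstm2 and -0.80 for Gstp1. With length and GC trends removed they were -0.26 for Gstm2 and -0.12 for Gstp1, and with shared genes summed -0.15 for Gstm2. Leaving out a liver turned Gsta1 (-0.16 without sgPrdx2 3.2; range -0.16 to 0.75), Gstm1 (0.040 without sgCtrl 5.1 and 0.075 without sgPrdx2 1.3; range -0.39 to 0.075), Gstm2 (-0.013 without sgCtrl 7.2 and -0.31 without sgPrdx2 3.2; range -0.31 to 0.22) and Gstp1 (-0.077 without sgPrdx2 3.2; range -0.077 to 0.36). Per kilobase of all annotated exons, sgCtrl levels moved to 212.5 for Gsta3, 86.8 for Gstm2, 83.5 for Gstp1 and 126 CPM per kb for Gstt1. No paired analysis was possible because the groups share no replicate number.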

Other observations

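Reads were also counted on pseudogenes that share stretches with members. Gstm2-ps1, a processed pseudogene on chromosome 5 that shares 46.9% of its 50-base stretches with Gstm1, Gstm3 and a pair of further predicted genes, was at 206 ± 54.9 CPM in sgCtrl and 161 ± 34.7 CPM in sgPrdx2 livers, and was not called (log2 fold change -0.36, adjusted p = 0.381). Gstp-ps, on chromosome 1, shares 71.1% of its stretches with Gstp1 and Gstp2 and was at 72.3 ± 17.3 and 87.0 ± 37.8 CPM (0.27, adjusted p = 0.615). How the counting treated reads that match several places is not given in the sources used here.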
